A study of Solanum lycopersicum with 6 samples.

Results

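miR156 and miR172 were followed in small RNA from tomato pedicels as every list entry whose name begins with one of these families. The study sequenced 3 *hws-1* and 3 WT samples of "Micro-Tom", each from the distal part of 5 bulked pedicels taken at 10 days after anthesis. The *hws-1* line carries a weak allele, induced by ethyl methanesulfonate, of *HAWAIIAN SKIRT*, which encodes an F-box protein, and came from a BC3 backcross population of this single allele. WT is the unmutated cultivar, and no other treatment separated the lines. The authors deposited 1 list of miRNAs per library, and each listed locus has 2 rows, 1 for the 5p arm and 1 for the 3p arm of the precursor. Of 826 rows over the 6 lists, 82 belong to miR156 or miR172, which is 41 of 413 listed loci. miR156 accounts for 17 of these loci and miR172 for 24. The lists hold miRNAs only, so that the tissue label, the *HAWAIIAN SKIRT* transcript and the target mRNAs of both families could not be checked or measured in them. A bulked segment holds several tissues, and fewer cells that make a miRNA cannot be told apart from less of it per cell.

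Both families are known for timing plant development. miR156 represses SQUAMOSA PROMOTER BINDING PROTEIN-LIKE (SPL) transcription factors, is abundant in young shoots and falls as a plant ages, and miR172, which in Arabidopsis is activated downstream of SPL proteins, represses APETALA2-like (AP2-like) transcription factors and increases as miR156 falls. The ratio of the families is therefore often read as a measure of phase. In tomato both families are also known to act in flowers and fruits. The active strand of miR156 comes from the 5p arm of its precursor and that of miR172 from the 3p arm, and the opposite arm gives the passenger or star strand.

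Values are RPM, the reads of a row per 1000000 reads of the total to which the library was scaled. The value of 1 read was found from the step between low values, and it gave scaling totals of 180179, 157233 and 114212 reads for *hws-1* replicates 1, 2 and 3, and of 313526, 257797 and 279892 reads for WT replicates 1, 2 and 3. One read was thus worth between 5.55 and 8.76 RPM in *hws-1* and between 3.19 and 3.88 RPM in WT. All *hws-1* totals lay below all WT totals. The paper states a sequencing depth per sample that is above all of these totals. The totals therefore need not be all reads sequenced, and which reads they count was not tested. Depth, shallowest and deepest refer to these scaling totals throughout. Depth in this sense and line cannot be told apart in these data. Between 56 and 66 loci of all families were listed in a *hws-1* library, against between 68 and 88 in a WT library.

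The number of listed loci of both families followed this order of depth only in part. miR156 had 3, 3 and 0 listed loci in *hws-1* replicates 1, 2 and 3, and 3, 4 and 4 in WT replicates 1, 2 and 3. miR172 had 4, 4 and 1 listed loci in the *hws-1* libraries, and 6, 5 and 4 in the WT libraries. The shallowest library, *hws-1* replicate 3, listed no miR156 and a single miR172 locus. The deepest, WT replicate 1, listed the most miR172 loci but no more miR156 loci than *hws-1* replicates 1 and 2.

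**Figure D1:**
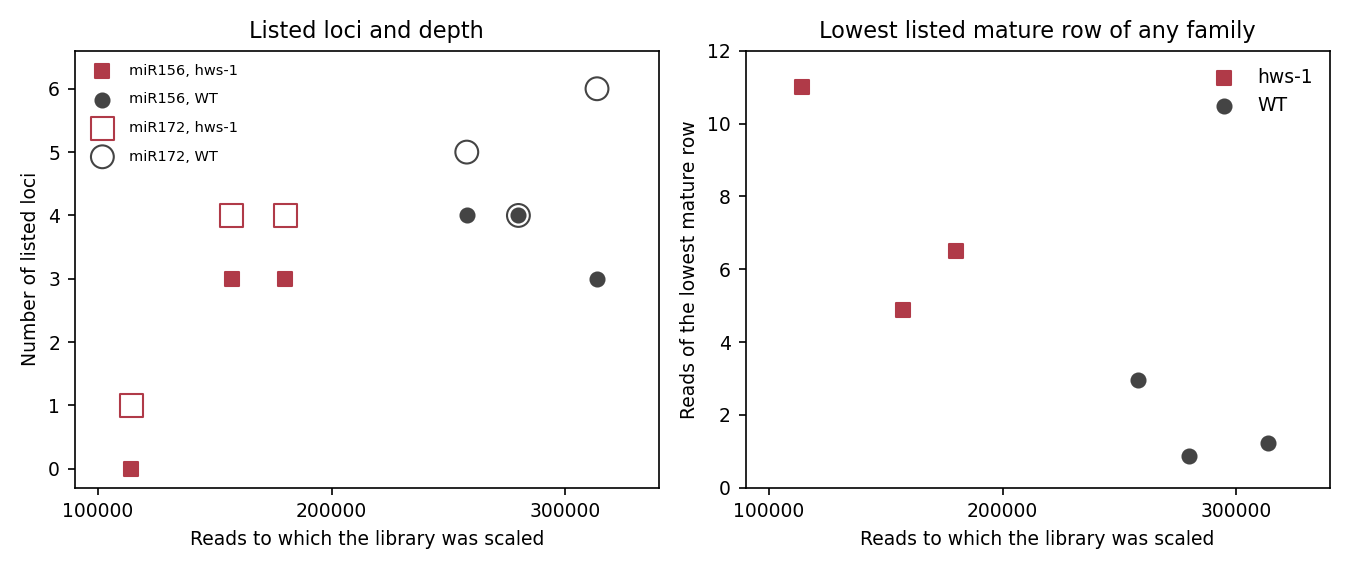
Listed loci of miR156 and miR172 (left, number) and reads of the lowest mature row of any family (right, reads), both against the reads to which each library was scaled; each point is 1 library, squares for *hws-1* and circles for WT, with small filled symbols for miR156 and large open ones for miR172 on the left. *hws-1* replicate 3, at 114212 reads, has 0 miR156 loci and 1 miR172 locus, and its lowest mature row of any family rests on 11 reads.

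miR156 level was taken as the sum over its listed loci and both arms. It was 159.6 RPM in *hws-1* replicate 1 and 422.0 RPM in *hws-1* replicate 2, and it was not listed in *hws-1* replicate 3. In WT it was 457.9, 512.2 and 490.9 RPM in replicates 1, 2 and 3. Both *hws-1* libraries that list the family lay below all WT libraries, but *hws-1* replicate 2 lay close to them and *hws-1* replicate 1 far from every other library. Per listed locus miR156 was 53.2 and 140.7 RPM in *hws-1* replicates 1 and 2. It was 152.6, 128.1 and 122.7 RPM per locus in WT replicates 1, 2 and 3, so that on this measure the lines overlapped. By sum the WT libraries differed by little, with a coefficient of variation of 5.63%, while their counting error, the square root of the reads over the reads, was between 8.35% and 8.70% (132.1 to 143.6 reads). In *hws-1* the sums rest on 28.8 and 66.4 reads, with counting errors of 18.6% and 12.3%. The counting error treats reads as independent molecules, covers nothing else, and is approximate because reads with several possible origins enter the values as fractions.

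Means were 290.8 ± 185.5 RPM in *hws-1* (SD, n = 2) and 487.0 ± 27.4 RPM in WT (SD, n = 3), a ratio of 0.597. An exact permutation test of the difference, two-sided, gave p = 0.2, the smallest value that 2 against 3 libraries allow. Of all 25 families that could be tested, 28.0% had no overlap between the lines and 3 of 25 had none and were lower in *hws-1*. In a limma fit over these families on log2(RPM + 1), miR156 had a log2 fold change of -0.90 with a standard error of 0.37, with *hws-1* replicate 3 missing, and a Benjamini-Hochberg adjusted p of 0.097, so that it did not pass the threshold of 0.05. That fit gave nearly all families the same standard error, so its p does not use the spread of miR156 itself. In it 3 of 25 families passed in either direction and 0.0% were called lower in *hws-1*, while 16.0% had an unadjusted p under 0.05, miR156 (0.015) among them.

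The value changed with the *hws-1* library used. With replicate 1 left out the log2 value was -0.20 (limma, adjusted p = 0.62), and with replicate 2 left out instead it was -1.60 (limma, adjusted p = 0.0029). Each of these fits has 1 *hws-1* library, assumed to vary like the other groups, so that its p has no replicate check in *hws-1*. *hws-1* replicate 1 does not list the locus that carries most of the 3p reads of the family elsewhere. With the sum taken only over loci found in every library that lists miR156, a choice made after the values were seen, the means were 143.0 RPM in *hws-1* and 149.4 RPM in WT, with a log2 fold change of -0.08.

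miR172 was listed in all 6 libraries. Its sum was 325.6, 317.8 and 381.2 RPM in *hws-1* replicates 1, 2 and 3, and 715.5, 421.5 and 300.8 RPM in WT replicates 1, 2 and 3. The *hws-1* sums cover 4, 4 and 1 listed loci, or 81.4, 79.5 and 381.2 RPM per locus. Those of WT cover 6, 5 and 4 loci, or 119.3, 84.3 and 75.2 RPM per locus. By sum the lines overlapped: WT replicate 3 was the lowest library of all, and WT replicate 1 alone was far above the rest. The coefficient of variation of the sums was 10.1% in *hws-1* and 44.5% in WT.

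Mean miR172 was 341.6 ± 34.6 RPM in *hws-1* and 479.3 ± 213.3 RPM in WT (SD, n = 3 each), a ratio of 0.713. The exact permutation test, two-sided, gave p = 0.4, where 3 against 3 libraries cannot go below 0.10. The log2 fold change of the limma fit was -0.40 with a standard error of 0.33 and an adjusted p of 0.56. Without WT replicate 1 the log2 fold change was -0.06. The sums rest on 58.7, 49.97 and 43.5 reads in *hws-1* and on 224.3, 108.7 and 84.2 reads in WT, with counting errors between 13.1% and 15.2% in *hws-1* and between 6.68% and 10.9% in WT.

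**Figure D2:**
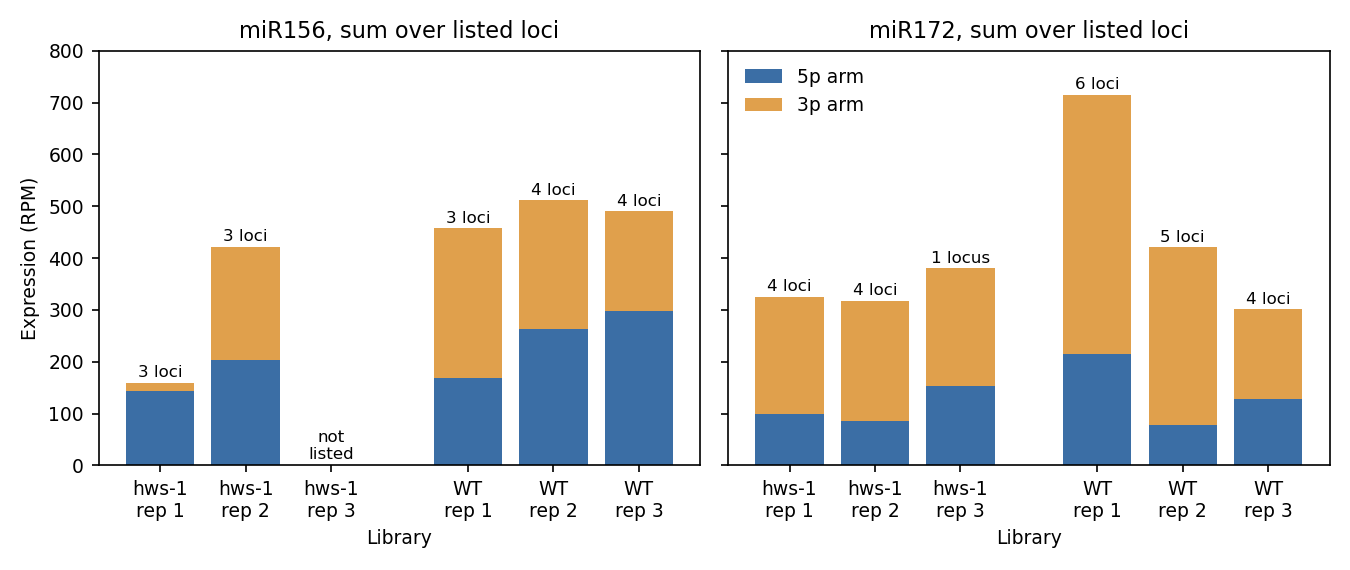
Sums of RPM over the listed loci of miR156 (left) and miR172 (right) in each library, with *hws-1* before WT; the blue part of a bar is the 5p arm and the orange part the 3p arm, and the number above it is the number of listed loci. miR156 lies at 159.6 and 422.0 RPM in the *hws-1* libraries that list it and between 457.9 and 512.2 RPM in WT, whereas the miR172 sums of both lines overlap.

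Both families were minor ones among the listed miRNAs. miR156 made up 0.110% and 0.191% of the listed RPM in *hws-1* replicates 1 and 2, against 0.256%, 0.374% and 0.309% in WT replicates 1, 2 and 3. miR172 made up 0.225%, 0.144% and 0.202% in *hws-1*, against 0.399%, 0.307% and 0.189% in WT. By family sum, miR156 ranked 24 of 26 and 23 of 27 families in *hws-1* replicates 1 and 2, and 23 of 35, 19 of 27 and 20 of 29 in WT. miR172 ranked 21 of 26, 25 of 27 and 22 of 25 in *hws-1*, and 19 of 35, 21 of 27 and 25 of 29 in WT. For comparison, miR159, which targets GAMYB-like transcription factors and, in Arabidopsis, also bears on phase change, was at 12741, 18720 and 16851 RPM in *hws-1* and 13947, 13992 and 13317 RPM in WT (limma, log2 fold change 0.21, standard error 0.33, adjusted p = 0.76). It was 1 of 5 related families that were looked for, and the others, miR157, miR529, miR535 and miR390, were listed in 0 libraries.

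By arm, miR156-5p, the strand that represses SPL genes, overlapped between the lines. It was 143.0 and 202.6 RPM in *hws-1* replicates 1 and 2, and 167.6, 264.0 and 298.0 RPM in WT replicates 1, 2 and 3. *hws-1* replicate 2 lay above WT replicate 1. Means were 172.8 ± 42.2 RPM in *hws-1* (SD, n = 2) and 243.2 ± 67.6 RPM in WT (SD, n = 3), with an exact permutation p of 0.4, and in a limma fit over 50 family arms the log2 fold change was -0.47 with a standard error of 0.41 (adjusted p = 0.56).

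miR156-3p, the star strand, differed widely between the *hws-1* libraries and less among the WT libraries. It was 16.7 and 219.4 RPM in *hws-1* replicates 1 and 2, and 290.2, 248.3 and 192.9 RPM in WT replicates 1, 2 and 3. *hws-1* replicate 2 stood within the WT range, and the value of *hws-1* replicate 1 rests on 3 reads. Means were 118.0 ± 143.4 RPM in *hws-1* (SD, n = 2) and 243.8 ± 48.8 RPM in WT (SD, n = 3), with an exact permutation p of 0.4. The log2 fold change was -1.95 with a standard error of 0.89 and an adjusted p of 0.26 in limma, so that it did not pass; of the 50 arms, 6.0% passed and 2.0% passed lower in *hws-1*. None of the 4 arms of miR156 and miR172 had an unadjusted p under 0.05 or was free of overlap between the lines, against 16.0% and 24.0% of the 50 arms. With the replicate number as a block it passed (-2.11, standard error 0.66, adjusted p = 0.019), with only 2 pairs of libraries behind it, and in that fit 6.0% of the arms were called lower. It was -0.13 when *hws-1* replicate 1 was left out, which leaves 1 *hws-1* library.

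miR172-3p, the strand that represses AP2-like genes, was 226.6, 233.0 and 228.4 RPM in *hws-1* replicates 1, 2 and 3, and 500.5, 343.6 and 173.4 RPM in WT replicates 1, 2 and 3. The *hws-1* libraries lay close together within the wide range of WT. Their coefficient of variation, 1.45%, was far smaller than their counting errors of 15.6%, 16.5% and 19.6%, and they reached it with 4, 4 and 1 listed loci. In WT the coefficient of variation was 48.2%. Means were 229.3 ± 3.31 RPM in *hws-1* and 339.2 ± 163.6 RPM in WT (SD, n = 3 each), with an exact permutation p of 0.4 and a limma log2 fold change of -0.43 (standard error 0.41, adjusted p = 0.57).

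miR172-5p, the star strand, was 99.0, 84.8 and 152.9 RPM in *hws-1* replicates 1, 2 and 3, and 215.1, 77.9 and 127.4 RPM in WT replicates 1, 2 and 3. The highest and the lowest library were both WT. Means were 112.2 ± 35.9 RPM in *hws-1* and 140.1 ± 69.5 RPM in WT (SD, n = 3 each), with an exact permutation p of 0.7 and a limma log2 fold change of -0.24 (standard error 0.43, adjusted p = 0.81). Without WT replicate 1 the sign turned, to 0.12.

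The 3p arm took 69.6%, 73.3% and 59.9% of miR172 in *hws-1*, and 69.9%, 81.5% and 57.6% in WT, so that the active strand was the larger one in every library. For miR156 the star arm took 10.4% and 52.0% in *hws-1* replicates 1 and 2, and 63.4%, 48.5% and 39.3% in WT. The star arm of miR156 thus exceeded the active arm in *hws-1* replicate 2 and in WT replicate 1.

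Row by row, the libraries could hardly be joined. A designation, the full name of a row, holds the family, a letter for the locus, an evidence word, the arm and whether the arm is mature or star. None of the 36 designations of miR156 and miR172 was listed in all 6 libraries, whereas 60 of the 266 designations of all families were, and 14 of the 36 were listed in a single library. The row-wise fit over 58 designations therefore tested 0 rows of these families, and of the designations it did test 6.9% were called, 3.45% as lower in *hws-1*. With absent rows set to 0, limma tested 30 of their rows among 237, of which 0 passed and 0 had an unadjusted p under 0.05, against 2.53% and 3.38% of the 237. Without *hws-1* replicate 3, miR172b-Known-3p-mature (log2 fold change -0.85, adjusted p = 0.43) and miR172b-Known-5p-star (-1.15, adjusted p = 0.11) could be tested and did not pass, while 7.69% of the 65 rows of that fit did. The star row had an unadjusted p of 0.016, and 16.9% of the 65 rows had one under 0.05. The name miR172b need not mark the same locus in these libraries.

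Letters did not stand for the same locus across libraries. In the lists a locus stands between loci of other families, and the nearest different family on each side was used to describe its place, a choice made after the lists were seen. The 41 loci fell into 9 places, 5 of miR156 and 4 of miR172. Of 9 names listed in more than 1 library, 7 stood at more than 1 place, and miR172d stood at 3. Only miR156a and miR172b kept 1 place, and that of miR172b held up to 3 loci. In WT replicate 1 the 3p row of miR172b was the highest there, at 233.1 RPM, against 49.0 and 99.7 RPM for miR172c and miR172d. In *hws-1* replicate 1 it was the lower one, at 36.1 RPM, against 118.4 RPM for miR172a. A kept place therefore need not mean a kept locus. A place can hold more than 1 locus, and it is not a coordinate.

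**Figure D3:**
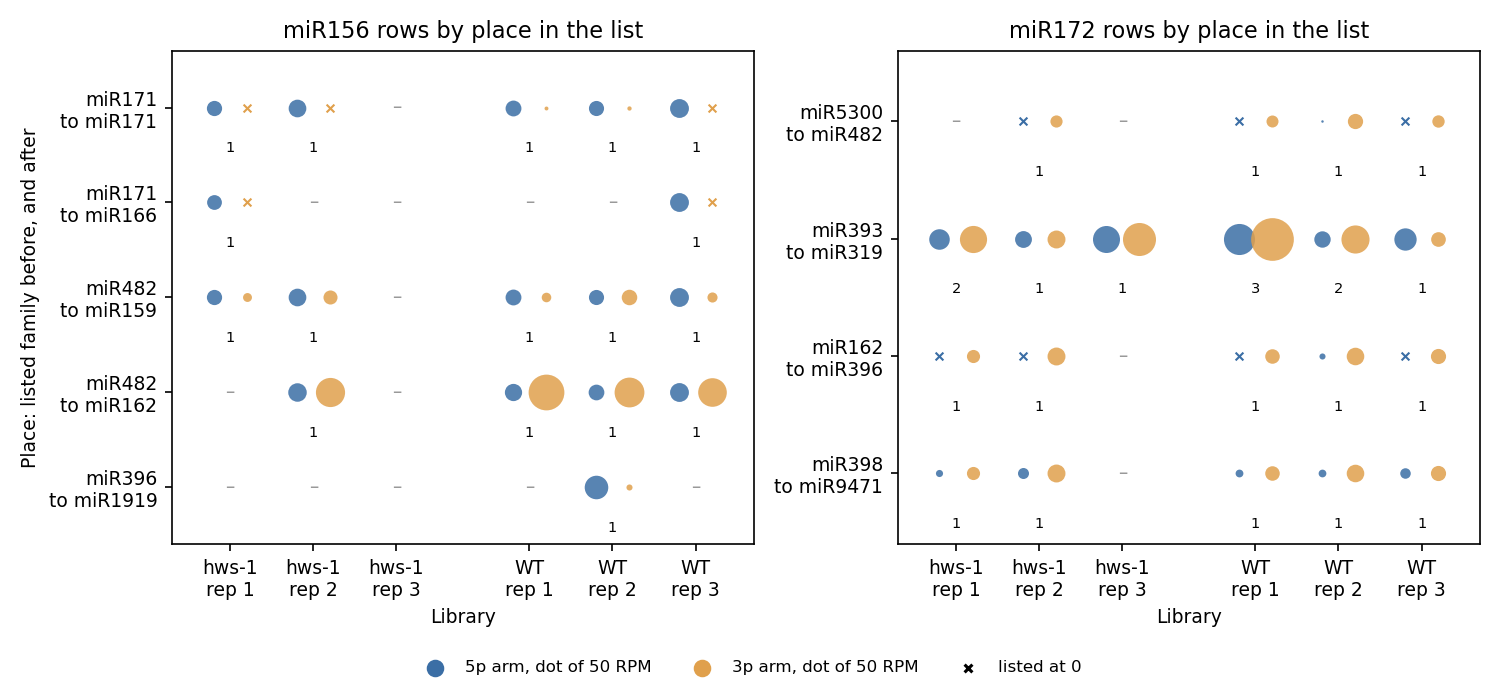
Rows of miR156 (left) and miR172 (right) by place in the list, the listed family before and after it, in each library, with *hws-1* before WT; the area of a dot is proportional to RPM (blue, 5p arm; orange, 3p arm), a cross is an arm listed at 0, a dash is a place not listed, and the number below is the number of loci. The largest miR156 dots are the 3p arm between miR482 and miR162, between 171.5 and 267.9 RPM in the 4 libraries that list it, and the miR172 place between miR393 and miR319 is the only place listed in all 6 libraries.

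The miR156 place between miR482 and miR162 carried most of the 3p reads of the family. Its 3p arm was 178.1 RPM in *hws-1* replicate 2, and 267.9, 186.2 and 171.5 RPM in WT replicates 1, 2 and 3, on 28 reads in *hws-1* and 84, 48 and 48 reads in WT. The *hws-1* value lay within the WT range. Its 5p arm was 71.8 RPM in *hws-1* replicate 2 and 62.2, 51.8 and 74.5 RPM in WT, so that the 3p arm exceeded the 5p arm in every library that lists the place. WT replicate 1 accordingly names the 3p arm mature there, while the other libraries name the 5p arm mature and the larger 3p arm star. In the RefSeq annotation of tomato, MIR156a is the miR156 gene with a miR482 gene before it, and the gene of a listed family after it is MIR172a. A miR482 locus also precedes the miR156 place before miR159, so this neighbour does not single out 1 place.

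*hws-1* replicate 1 does not list this place. At the levels of the other libraries, its 3p arm would have given between 30.9 and 48.3 reads at the depth of *hws-1* replicate 1, and its 5p arm between 9.33 and 13.4 reads. The lowest mature row that this library lists rests on 6.5 reads. Why the place is missing there was not tested.

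The other miR156 places gave more from the 5p arm than from the 3p arm, except in WT replicate 2 between miR482 and miR159. Between miR171 loci on both sides, and between miR482 and miR159, the 5p rows had identical values within each library: 48.6 and 65.4 RPM in *hws-1* replicates 1 and 2, and 52.7, 47.9 and 74.5 RPM in WT replicates 1, 2 and 3. These rows hold fractions of reads and do not count as separate measurements. The lines overlapped, with means of 57.0 ± 11.9 RPM in *hws-1* (SD, n = 2) and 58.4 ± 14.2 RPM in WT (SD, n = 3), and limma over rows joined by place gave a log2 fold change of -0.02 with a standard error of 0.40 (adjusted p = 0.97). In WT replicate 3 all 4 listed miR156 loci had the same 5p value of 74.5 RPM.

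Their 3p arms stayed far below that of the place between miR482 and miR162. Between miR482 and miR159 the 3p arm was 16.7 and 41.3 RPM in *hws-1* replicates 1 and 2 and 19.1, 50.4 and 21.4 RPM in WT, again with overlap. Between the miR171 loci it was 0 in both *hws-1* libraries and in WT replicate 3, and 1 read in each of the other WT libraries. A place between miR171 and miR166 was listed in *hws-1* replicate 1 and WT replicate 3 alone, with 45.8 and 74.5 RPM from the 5p arm and 0 from the 3p arm. A place between miR396 and miR1919 was listed in WT replicate 2 alone, with 116.4 RPM from the 5p arm, on 30 reads, and 7.76 RPM from the 3p arm.

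Among the miR172 places, the one between miR393 and miR319 had the highest sums and varied most. Its 3p arm was 154.5, 67.3 and 228.4 RPM in *hws-1* replicates 1, 2 and 3, from 2, 1 and 1 loci, and 381.8, 165.6 and 45.1 RPM in WT replicates 1, 2 and 3, from 3, 2 and 1 loci. The highest and the lowest value were both WT, and the *hws-1* values lay between them. Its 5p arm was 88.3, 59.4 and 152.9 RPM in *hws-1* and 202.3, 56.2 and 104.2 RPM in WT. Limma over rows joined by place gave log2 fold changes of -0.09 for the 3p arm (standard error 0.77) and -0.19 for the 5p arm (standard error 0.54). In WT replicate 3 the 5p star exceeded the 3p mature strand here, which was the only such miR172 locus of 24. MIR172d is the RefSeq miR172 gene that follows a MIR10528 gene, and no RefSeq miR172 gene lies between miR393 and miR319 genes.

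At the remaining miR172 places the lines overlapped as well. Between miR162 and miR396, and between miR398 and miR9471, the 3p rows had identical values within each library: 36.1 and 67.3 RPM in *hws-1* replicates 1 and 2, and 44.2, 64.7 and 48.1 RPM in WT replicates 1, 2 and 3. In *hws-1* replicates 1 and 2 a locus between miR393 and miR319 also had this value. The log2 fold change was -0.06 with a standard error of 0.43 (limma, rows joined by place).

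Between miR398 and miR9471 the 5p arm was 10.6 and 25.4 RPM in *hws-1* replicates 1 and 2 and 12.8, 12.6 and 23.2 RPM in WT. In RefSeq MIR172b follows MIR398a, and MIR172a follows MIR156a. Between miR5300 and miR482, the flanks of MIR172c in RefSeq, the 3p arm was 31.1 RPM in *hws-1* replicate 2 and 30.2, 48.7 and 32.0 RPM in WT, and *hws-1* replicates 1 and 3 do not list the place. At the levels seen elsewhere it would have given between 5.43 and 8.77 reads in *hws-1* replicate 1. Of 50 rows joined by place, 10 belonged to miR156 or miR172, and 0 of these and 0.0% of all passed in limma. None of the 10 had an unadjusted p under 0.05, and their lowest adjusted p was 0.47. All 10 overlapped between the lines, whereas 18.0% of the 50 rows did not.

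The star strand exceeded the mature strand at 4 of 17 miR156 loci (23.5%) and at 1 of 24 miR172 loci (4.17%), against 22 of 372 loci of the other families (5.91%). Of the miR156 loci, 1 of 6 in *hws-1* and 3 of 11 in WT had the larger star strand. At the place between miR482 and miR162, WT replicate 1 is not among them, since its larger arm is named mature there.

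Within both families the evidence words went with the star reads. The lists call all loci of miR156 and miR172 either Known or Probable. In the paper, Probable stands for miRNAs predicted from the sequencing data and computation, without experimental proof. miR156 had 12 Known and 5 Probable loci (29.4%), and miR172 had 15 Known and 9 Probable loci (37.5%), against 20.7% Probable of the 372 loci of the other families, 10 of which carry neither word. All 14 Probable loci of miR156 and miR172 had a star row at 0, and none of their 27 Known loci did. Of the other families, 65 of 77 Probable loci and 1 Known locus had a star row at 0.

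By line, miR156 had 3 Known and 3 Probable loci in *hws-1* and 9 Known and 2 Probable loci in WT. miR172 had 6 Known and 3 Probable loci in *hws-1* and 9 Known and 6 Probable loci in WT. At the following places the word differed along with 2 star reads or less, and no rule for the word is given with the lists. The miR156 place between miR171 loci was Probable in *hws-1* replicates 1 and 2, was also Probable in WT replicate 3, and was Known in WT replicates 1 and 2, where the star row held 1 read. The miR172 place between miR5300 and miR482 was Known in WT replicate 2 alone, on a share of 0.333 read in its 5p row. The miR172 place between miR162 and miR396 was also Known in WT replicate 2 alone, on 2 reads in its 5p row. In the other libraries that list it, that place was Probable with a 5p row at 0. Since the word is part of the designation, such rows carry other names in other libraries.

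The ratio of miR172 to miR156, taken within a library so that scaling cancels, was 2.04 and 0.753 in *hws-1* replicates 1 and 2, and 1.56, 0.823 and 0.613 in WT replicates 1, 2 and 3. miR172 exceeded miR156 in *hws-1* replicate 1 and WT replicate 1 and was below it in the other 3 libraries, so that the lines overlapped. Mean log2 ratios were 0.31 in *hws-1* and -0.11 in WT, a difference of 0.42 with an exact permutation p of 0.6, where 2 against 3 libraries cannot go below 0.2. *hws-1* replicate 3 has no ratio, since miR156 is not listed there.

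The sign of this difference depended on what entered the ratio. With the 5p arms alone the ratio was 0.692 and 0.419 in *hws-1* and 1.28, 0.295 and 0.428 in WT. With the 3p arms alone it was 13.6 and 1.06 in *hws-1* and 1.72, 1.38 and 0.899 in WT, and the value of 13.6 rests on 3 miR156 reads. With the active strands, miR172-3p to miR156-5p, it was 1.59 and 1.15 in *hws-1* and 2.99, 1.30 and 0.582 in WT, a difference of log2 ratios of 0.04 (exact permutation p = 1). Without *hws-1* replicate 1 the difference of the family ratios was -0.29.

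miR156 was absent from the list of *hws-1* replicate 3, the shallowest library. At the WT mean sum it would have given 55.6 reads at that depth, of which 27.8 from the 5p arm, and at the lowest listed sum 18.2 reads. These reads would have been spread over several loci. The 5p row of a single locus ranged from 45.8 to 116.4 RPM in the other libraries, or 5.23 to 13.3 reads at the depth of *hws-1* replicate 3, and the lowest mature row this library lists rests on 11 reads. The 3p arm of the place between miR482 and miR162 would have given between 19.6 and 30.6 reads. A missing family is not a measured 0, since a rule of listing is not given with the lists.

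Absence from exactly 1 library was uncommon, while absence from several was not. Of 36 families, 21 were listed in all 6 libraries, and 3 were missing in exactly 1: miR156 from *hws-1* replicate 3, miR6024 from *hws-1* replicate 1 and miR391 from WT replicate 3. The remaining families were missing in more than 1 library. By library, 26, 27 and 25 of the 36 families were listed in *hws-1* replicates 1, 2 and 3. In WT replicates 1, 2 and 3 the numbers were 35, 27 and 29. *hws-1* replicate 3 also lacked miR477, which all WT libraries list at 239.4 to 311.0 RPM. The other families missing in exactly 1 library had higher means where listed, 676 RPM for miR6024 and 1789 RPM for miR391, against 409 RPM for miR156. Absent miR156 and low depth occurred in the same library, and their relation was not tested.

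**Figure D4:**
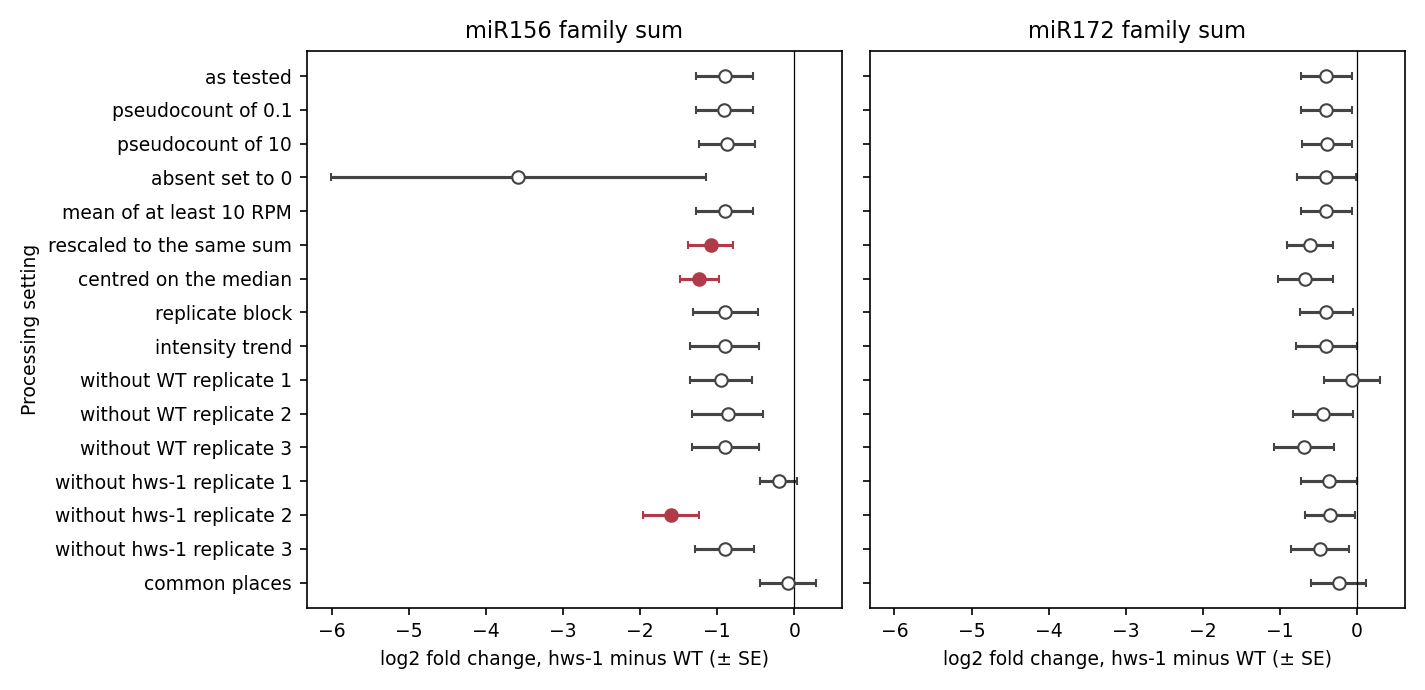
Log2 fold change of the miR156 sum (left) and the miR172 sum (right), *hws-1* minus WT, under each processing setting; points are limma estimates, bars are ± 1 standard error, and filled red points have an adjusted p under 0.05. miR156 lies at -0.90 as tested, at -0.20 without *hws-1* replicate 1 and at -0.08 over the places found in every library that lists it. That last setting leaves out the miR156 place missing in *hws-1* replicate 1. miR172 lies at or below -0.06 under all of the settings shown.

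The families whose levels varied most like each were then found by the root mean square (RMS) difference of log2 sums, each centred on its own mean. For miR156 over the 5 libraries that list it, these were miR168, which targets ARGONAUTE1 (RMS 0.11), miR394 (0.32) and miR5300 (0.42) of 21 families compared. miR172 ranked 13 of these, at 0.66. miR168 was 1321 and 3568 RPM in *hws-1* replicates 1 and 2, and 4117, 3671 and 3778 RPM in WT replicates 1, 2 and 3. It, too, was low in *hws-1* replicate 1, where 1 miR168 locus was listed against 2 in each other library. miR394 and miR5300 were also lowest in *hws-1* replicate 1, with 2 and 1 listed loci in every library. They were at 758 and 272 RPM there, against 1268 to 1671 RPM and 398 to 693 RPM in the other libraries.

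For miR172 over all 6 libraries, the most alike of 20 families were miR9471 (RMS 0.27), miR171, which targets GRAS transcription factors (0.37), and miR9470 (0.38), while miR172 itself had an SD of 0.46. miR171 was 193, 190 and 233 RPM in *hws-1* replicates 1, 2 and 3, and 344, 141 and 103 RPM in WT replicates 1, 2 and 3. As for miR172, WT replicate 1 was its highest library, and that library listed 3 miR171 loci against 2 in each of the others. miR9471 and miR9470 were also highest in WT replicate 1, at 38050.5 and 2621 RPM, with 2 and 1 listed loci in every library. These likenesses describe 5 or 6 libraries that differ in depth, and they share the scaling of each library.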

How the data were processed

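Distal pedicel samples of *hws-1* and WT (3 libraries each) were prepared by the authors with the TruSeq Small RNA kit, sequenced on a NovaSeq X Plus and run through the sRNAminer One Step pipeline at default settings. Its version and the genome build are not given in the sources used here. The deposited values are RPM, called TPM by the authors, for each designation, with reads of several origins divided among rows. Each library was processed alone, so that letters and evidence words are set per list. Lines and replicate numbers came from the labels.

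Rows were members if their name was miR156 or miR172 with an optional letter. Members and lists were chosen with earlier results of these data known. Family and arm sums were tested with limma 3.58.1 (R 4.3.3) on log2(RPM + 1), line as the only term, where listed in at least 2 libraries of each line, with unlisted libraries missing and Benjamini-Hochberg adjustment over all families or arms. Predicted miRNAs with numbered names have no family and were left out of family tables. Exact permutation tests, two-sided, served for single values (scipy 1.17.1), and tables and plots were made with Python 3.11.15, pandas 2.3.3, numpy 2.4.6 and matplotlib 3.10.9. The named miRNAs were all members, 5 related families and the 3 families most alike to each. Between 32.3% and 38.0% of the values above 0 were whole multiples of 1 read within 0.001, so that no count model was fitted. The scripts were tested on simulated data. RefSeq (SLM_r2.1) served for names and neighbours only, since the build of the lists is not named.

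Alternatives were pseudocounts of 0.1 and 10, absent values set to 0 or to 1 read, a mean of at least 10 RPM, the same listed sum in all libraries, median centring, single arms, a replicate block, an intensity trend, rows joined by name and arm, and each library left out. Joining by place was added after the data were seen. Deviations of same-numbered samples had weak positive correlations over 58 designations (0.16, 0.22 and 0.23, against -0.33 to 0.14 for other pairs). Over 42 family arms they were 0.36, 0.22 and 0.12, against -0.43 to 0.14 for other pairs. Deviations were taken from the mean of each line, which ties the pairs to each other, and the contrast was not tested. The replicate numbers come from the labels. The paper calls the replicates biological, and the labels do not name plants. The p-values cover no spread beyond these samples. In the limma family fit as tested, the spread used is pooled over the families and is not that of a single family.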

Additional observations from a re-analysis of the deposited data

How the results depend on the processing

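The miR156 sum kept its negative sign under all 15 alternatives, with adjusted p up to 0.85. Among fits with at least 2 libraries of each line, it passed when rescaled or centred. Rescaling to the same listed sum gave -1.09 (limma, adjusted p = 0.040), and centring on the median gave -1.24 (limma, adjusted p = 0.021). In each of these fits 3 of 25 families passed, in either direction. Without *hws-1* replicate 2 the miR156 sum was -1.60, in a fit with a single *hws-1* library, assumed to vary like the other groups. Leaving out single libraries moved it between -1.60 and -0.20. Rescaling and centring also moved the median over all families from 0.16 to -0.07 and -0.13. With absence set to 0 it was -3.58 (adjusted p = 0.56).

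Among fits with at least 2 libraries of each line, miR156-3p passed with the replicate block, with the intensity trend and without WT replicate 3. The limma values were, in this order, -2.11, -1.95 (adjusted p = 0.039) and -2.11 (adjusted p = 0.030). Under the block 6.0% of the 50 arms were called lower in *hws-1*, and the shares in the other fits are not given here. Left-out values of miR156-3p lay between -3.77 and -0.13. Each of these 2 values comes from a fit with 1 *hws-1* library. Adjusted p of miR156-3p reached up to 0.99 over the 15 alternatives. The replicate block changed no other call of miR156 and miR172 (miR156 sum -0.90, adjusted p = 0.24).

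miR172 (adjusted p 0.16 to 0.86), miR156-5p (0.094 to 0.996), miR172-3p (0.19 to 0.996) and miR172-5p (0.28 to 0.96) passed under none of 15. Left-out values of miR172-5p lay between -0.60 and 0.12, and those of the miR172 sum between -0.69 and -0.06.

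The difference of log2 ratios, 0.42, was -0.0178 with the 5p arms alone and -0.53 over places found in every library that lists the family. The value of -0.53 leaves out the miR156 place missing in *hws-1* replicate 1. The difference was 1.56 with the 3p arms alone and 2.14 with absent miR156 set to 1 read, and leaving out single libraries moved it between -0.29 and 1.14. Causes were not tested. Depth limits low rows: 3 reads in *hws-1* replicate 3 are worth 26.3 RPM.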
